A study of Caenorhabditis elegans with 18 samples.

Results

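The data described here are the small RNAs and the mRNA of wildtype *Caenorhabditis elegans*, the Bristol strain N2, as gravid adults. They were selected as the 3 small RNA sequencing (sRNA-seq) and the 3 mRNA sequencing (mRNA-seq) libraries of the wildtype strain, 6 of the 18 libraries in the series. The animals were hermaphrodites grown from synchronized first-stage larvae for 72 h at 20 °C on *Escherichia coli* OP50, and RNA came from whole animals. The series also holds libraries of *tcer-1* deletion mutants, a gene for a transcription elongation and splicing factor, and these were not used here. All 25899 small RNA features, in 10 classes, and all 29970 rows of the mRNA table were read. The question was how abundant each small RNA class is in the wildtype, which features lead it, and how the 22G-RNAs of a gene relate to that gene's own mRNA.

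22G-RNAs are short antisense RNAs, made by RNA-dependent RNA polymerases on an mRNA template, that are bound by Argonaute proteins. WAGO Argonautes use them to silence genes, pseudogenes and transposons, whereas the Argonaute CSR-1 binds 22G-RNAs of genes that are expressed in the germline. 26G-RNAs of the Argonautes ALG-3 and ALG-4 (in sperm development) and ERGO-1 (in oocytes and embryos) act upstream and prompt the making of 22G-RNAs, as do piRNAs, which are bound by the Argonaute PRG-1. miRNAs are cut from hairpins and act on mRNAs through their seed, the bases 2 to 8 counted from the 5′ end.

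The sRNA-seq values are reads per 1000000 reads (RPM) and stand for about 12903226 to 14413376 reads per library, so that 1 read is 0.0694 to 0.0775 RPM. The mRNA values are normalized counts from about 20576540 to 26011196 reads per library. On the log2(value + 1) scale Pearson's r between libraries was 0.994 to 0.995 across 8279 small RNA features and 0.987 across 16148 mRNA rows with a mean of at least 2, where genes are not independent replicates. The mRNA fits the label of gravid adults. The 12 oocyte and embryo markers stood at 2744 to 25463 normalized counts per kilobase of exon, led by *cbd-1*, an eggshell protein. The yolk protein gene *vit-6* reached 93017 per kilobase and the adult cuticle collagen *col-119* 66245. The collagen genes *bli-1* and *col-17*, listed here as markers of the larval hypodermis, were at 4.98 and 19.6. The 10 sperm markers were at 4.48 to 121.5 per kilobase. In whole animals fewer cells of a type and less RNA per cell cannot be told apart.

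The miRNAs that carry most of the miRNA reads fall into a few seed families, shown here because the family sums below follow from these letters. Sequences are from the RefSeq annotation of the WBcel235 assembly, 5′ to 3′, with the seed in capitals.
miR-58a-3p: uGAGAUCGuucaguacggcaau
miR-80-3p: uGAGAUCAuuaguugaaagccga
miR-82-3p: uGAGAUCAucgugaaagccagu
miR-39-3p: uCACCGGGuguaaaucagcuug
miR-37-3p: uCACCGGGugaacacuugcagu
miR-35-3p: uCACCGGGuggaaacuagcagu
miR-55-3p: uACCCGUAuaaguuucugcugag
miR-56-3p: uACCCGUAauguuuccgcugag
miR-51-5p: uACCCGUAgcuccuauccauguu
miR-64-5p: uAUGACACugaagcguuaccgaa
miR-70-3p: uAAUACGUcguugguguuuccau
miR-77-3p: uUCAUCAGgccauagcugucca
miR-48-5p: uGAGGUAGgcucaguagaugcga
let-7-5p: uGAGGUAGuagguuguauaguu
Within the seed, miR-58a-3p and miR-80-3p differ by G8A, counted from the 5′ end. miR-58a-3p lies at chrIV:3233314-3233335 and miR-39-3p at chrII:11538143-11538164, both on the plus strand. Outside the seed the members of a family differ from one another.

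The 4 piRNAs of highest level, and the pair of 23H-RNAs that leads that class, are shown because the start base and the pairing discussed below can be read in them. The first base is in capitals for the piRNAs, and the 23H-RNAs are written in the DNA letters of the deposited table.
21ur-3421: Ucauccugauuuugaacuaca
21ur-552: Ucaaagcucugaagauuugcc
21ur-5107: Uccgaauuccgaauugaaacu
21ur-2290: Uaggaucucugcucuguugag
F43E2.6 23H-RNA on the plus strand: tttgccgatgtttctgagatgtc
F43E2.6 23H-RNA on the minus strand: catctcagaaacatcggcaaatg
These 4 piRNAs lie on chromosome IV, 21ur-3421 at chrIV:13700230-13700250 on the minus strand and 21ur-552 at chrIV:15177672-15177692 on the plus strand. The F43E2.6 pair lies at chrII:7367591-7367613 and chrII:7367589-7367611.

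The small RNA reads of the wildtype were mostly WAGO class 22G-RNAs and miRNAs. WAGO class 22G-RNAs summed to 299134, 301541 and 299357 RPM in replicates 1 to 3, which is 46.2% ± 0.26 (SD, n = 3) of the sum over all features. miRNAs summed to 236926, 232364 and 226864 RPM, or 35.7% ± 0.60. CSR class 22G-RNAs, spread over 3608 loci, gave 9.27% ± 0.069 and piRNAs 5.56% ± 0.29. The order of these 4 classes was the same in every library and no neighbours overlapped. Their spread over libraries was small beside the gaps, with an SD of 1330 RPM for WAGO against 5038 RPM for miRNAs.

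The other 6 classes were minor. 22G-RNAs of ALG target genes summed to 10073 ± 95.8 RPM, those of ERGO target genes to 5886 ± 123 RPM and those of 23H target genes to 4755 ± 63.6 RPM. The 26G-RNAs that act upstream were far lower, 214 ± 21.7 RPM for the ERGO class and 56.1 ± 8.67 RPM for the ALG class, and 23H-RNAs summed to 277 ± 10.6 RPM. The ALG class 26G-RNAs varied most between libraries, at 49.1, 53.4 and 65.8 RPM. A gene can have rows in several 22G-RNA classes. Of 6890 genes with 22G-RNAs 475 did, always with the same values in each row, and with each counted once 22G-RNAs were 57.7% ± 0.36 of the sum.

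**Figure D1:**
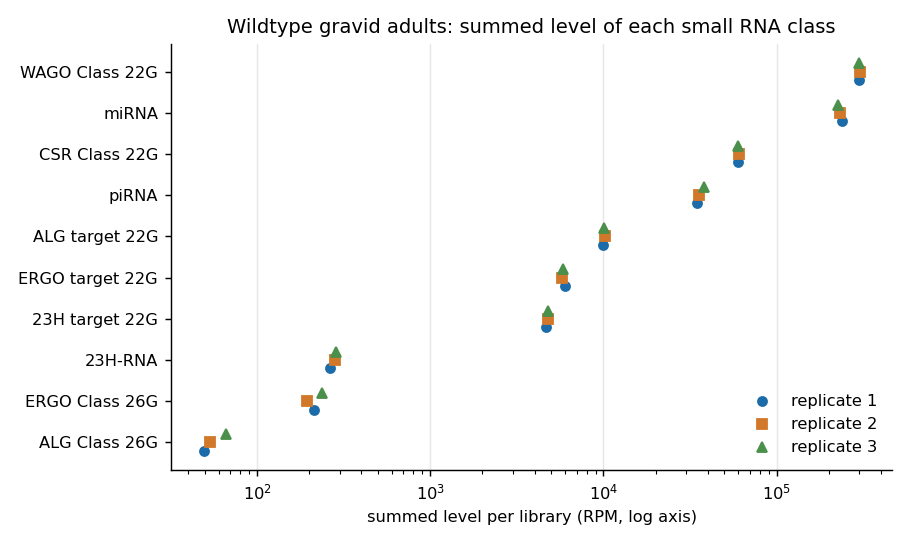
Summed level of each small RNA class in RPM (log axis) in the 3 wildtype sRNA-seq libraries, 1 point per library. WAGO class 22G-RNAs and miRNAs lie between 226864 and 301541 RPM in every library, and the 26G-RNA classes at 236 RPM or less.

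The classes also differed in how many features carry them. For miRNAs 7 of 439 features gave 50% of the class, and miR-58a-3p alone gave 18.8%. For WAGO it took 108 of 2215 loci, for piRNAs 236 of 15363 and for CSR 540 of 3608. A mean of at least 2 RPM was reached by 2062 WAGO loci, 3239 CSR loci, 2131 piRNAs, 506 ALG target loci, 171 miRNAs and 98 ERGO target loci. Only 1 ALG class 26G-RNA locus of 1399 reached it, with 21 of the 123 ERGO class ones and 17 of 1194 23H-RNAs. No CSR locus had 1000 RPM or more, whereas 54 WAGO loci and 33 miRNAs did.

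miR-58a-3p, related to the fly miRNA bantam, was the most abundant small RNA, at 45372, 43752 and 42021 RPM. miR-39-3p of the miR-35 family, which is required for embryonic development, followed at 18988, 15485 and 16107 RPM, and miR-70-3p at 14421, 14446 and 14013 RPM. The ranges of these 3 did not overlap each other. miR-55-3p (11058 ± 1201 RPM), miR-77-3p (10455 ± 778), miR-80-3p (10038 ± 696), miR-37-3p (9702 ± 189) and miR-35-3p (9542 ± 269) came next, and each overlapped its neighbour in that order. miR-56-3p (8498 ± 668 RPM) and miR-72-5p (7521 ± 658) closed the first 10.

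Grouped by seed, 415 of the 439 miRNAs could be given a sequence, which held 99.996% of the miRNA reads, and they carried 349 seeds, 34 of them shared. The seed of miR-58a-3p belonged to no other miRNA, and its 43715 ± 1676 RPM stood beside 43642 ± 2607 RPM for the 8 miRNAs of the miR-35 family, with overlapping ranges. The miR-51 family, 6 miRNAs led by miR-55-3p, summed to 25897 ± 1858 RPM. The 6 miRNAs with the seed of miR-80-3p summed to 19036 ± 1060 RPM and the 5 with that of miR-64-5p to 18733 ± 347 RPM. These 5 families made up 65.1% of all miRNA reads. If the seed is taken as bases 2 to 7 only, miR-58a-3p joins miR-80-3p and its relatives, and the 7 miRNAs sum to 62751 ± 2014 RPM or 27.0% of the miRNA reads. The let-7 family, whose members time larval development, reached 7016 RPM, and 87.2% of it was miR-48-5p.

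**Figure D2:**
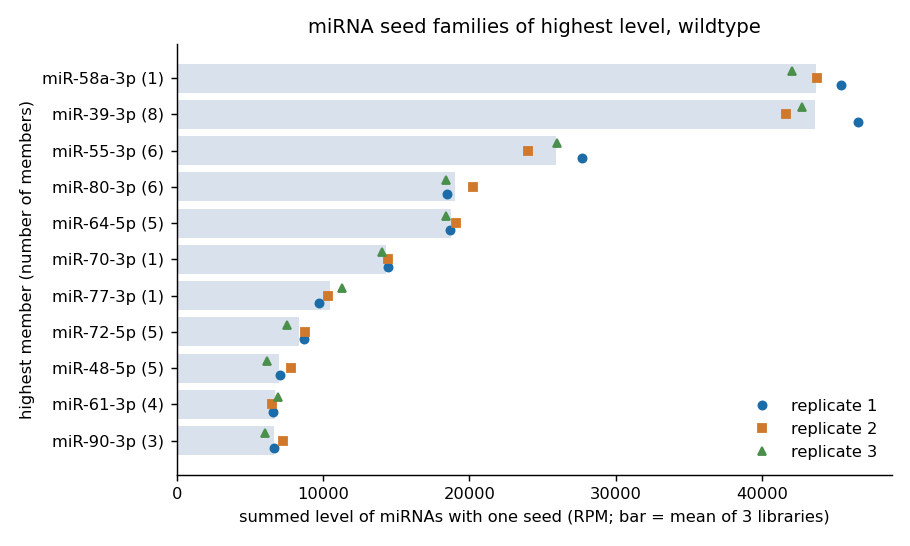
Summed level in RPM of the 11 miRNA seed families of highest level. Points are the 3 wildtype libraries, bars their mean, and the number of members stands beside the highest member. The first 2 families overlap at 41636 to 46589 RPM and 42021 to 45372 RPM.

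Some of these hairpins lie close together in the genome and others, such as *mir-58a* and *mir-70*, do not. With hairpins on 1 strand less than 2000 bases apart taken as a cluster, 59 hairpins fell into 21 clusters, which held 49.0% of the miRNA reads. The cluster of *mir-35* to *mir-41*, 797 bases on chromosome II, gave 43656 ± 2582 RPM. Its hairpins were unequal, from 176 RPM for *mir-41* to 16893 RPM for *mir-39*, a 95.9-fold range. The *mir-54*, *mir-55* and *mir-56* cluster on chromosome X ranged 34.2-fold from hairpin to hairpin.

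Of the 2 arms of a hairpin, 1 was mostly far above the other. In 86 hairpins with values for both arms and at least 10 RPM for the higher one, the lower arm was under 1% of the higher in 56 and under 10% in 73, with a median of 0.235%. The 3p arm was the higher one in 56. The lower arm was over 50% in 5, among them *mir-41* (62.2, 79.3 and 100.26 RPM for 3p against 92.2, 107.96 and 86.4 RPM for 5p), *mir-34* and *mir-240*. In *mir-41* the arms overlapped and neither was higher in every library. miRNAs whose annotated sequence starts with U held 91.3% of the level of the miRNAs with a sequence.

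Among 61 miRNAs with at least 100 RPM the coefficient of variation over the 3 libraries had a median of 6.14%, and 3 exceeded 20%. These were let-7-5p (258, 382 and 200 RPM), miR-71-5p (1822, 2689 and 1637 RPM) and miR-84-5p (579, 735 and 484 RPM). Replicate 2 was the highest for all 3. It was also the highest for the muscle miRNA miR-1-3p (3500, 4581 and 3571 RPM). Of the 4 body wall muscle markers in the mRNA, *unc-54* (11528, 14728 and 10332 normalized counts), *myo-3* and *unc-22* were also highest in the replicate numbered 2, and *unc-15* (5500, 5458 and 4265) was not. The labels do not say that an sRNA-seq and an mRNA-seq library of 1 number share their RNA, and the part of muscle in these values was not tested.

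piRNAs were many and each was low. Of 15363 piRNA features, 9967 were above 0, 749 had at least 10 RPM and 50 had at least 100 RPM. The highest was 21ur-3421, at 306, 336 and 396 RPM, overlapped by 21ur-552 (338, 293 and 369 RPM) and 21ur-5107 (284, 307 and 341 RPM). For the 5396 piRNAs listed at 0 in all 3 libraries a count of 0 allows up to 3 reads per library, or 0.208 to 0.233 RPM, which covers counting error only. All features were 21 bases long by their coordinates. By the genome sequence there, 96.2% of them start with U, and these held 99.9% of the piRNA reads. Chromosome IV, known to hold the large piRNA clusters, carried 95.8% of the piRNA loci and 99.9% of the reads. At least 2 RPM was reached by 14.5% of the piRNAs on chromosome IV, against 3 of the 649 on the other chromosomes.

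A motif is known upstream of piRNAs, and its letters were searched in the bases from 60 to 20 before each piRNA. CTGTTTCA was present before 33.4% of piRNAs, against 0.180% of 19973 windows of the same length and place before protein-coding genes. On the opposite strand it was found in 0.332% and 0.0551%. Where present, its first base lay 46 bases before the piRNA or within 5 bases of that in 99.7%. Before 21ur-552, on chromosome IV, the motif (in capitals) and its surroundings were as follows.
21ur-552 upstream: cagcaaaaaaCTGTTTCAcgttgttatt
The shorter TGTTTCA, which contains no first C and overlaps the longer motif, was present before 46.6% (0.936% of the background windows), and GTTTC, inside both, before 73.1% (7.72%). The presence of the full motif did not go with a higher level. Of the 5136 piRNAs with CTGTTTCA 11.9% had at least 2 RPM, against 20.6% of the 2028 with TGTTTCA after another base and 13.4% of the 8199 with neither. Among piRNAs with TGTTTCA the share with the C in front was 75.8% for those listed at 0, 72.4% above 0 and under 2 RPM, 62.4% from 2 to under 10 RPM, 54.1% from 10 to under 100 RPM and 52.4% (11 of 21) at 100 RPM or more. This is a description of letters and levels in 1 group, with no test.

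WAGO 22G-RNAs were led by loci with little mRNA, among them pseudogenes and a noncoding RNA. *linc-29*, a long intergenic noncoding RNA on chromosome IV (6354024 to 6357243, WBcel235), had 8503, 8123 and 8182 RPM of 22G-RNA and 86.8, 81.6 and 74.1 normalized counts of RNA. F02C12.3 on chromosome X followed with 6156, 6285 and 6345 RPM and 33.4, 38.7 and 30.7 normalized counts. Both ranges were clear of the next locus. Y39E4B.14, a pseudogene, W09C5.12, *cars-2* (a pseudogene in this annotation), *got-1.2*, an aspartate aminotransferase gene, and the pseudogene F37H8.2 had 3110 to 3333 RPM on average, each overlapping the next. W04A8.9, *fkb-8* of the FK506-binding protein family and the pseudogene K08B4.5 were at 2841 to 2912 RPM.

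The mRNA of these 10 ran from 16.9 normalized counts for W09C5.12 to 140 for *cars-2*, except *got-1.2*, whose mRNA was 1053, 1103 and 1158. W09C5.12 overlaps W09C5.9 on the other strand, so that its mRNA value is uncertain. Another 211 WAGO loci, with 22000 RPM in sum and led by T27C5.9 (2330, 2315 and 2273 RPM), had no row in the mRNA table and enter no comparison with mRNA. The median coefficient of variation was 3.78% among the WAGO loci with at least 2 RPM, against 6.29% for CSR loci and 12.96% for piRNAs. The median levels of the same features were 38.7, 11.6 and 6.20 RPM. Features with fewer reads vary more by counting error, whose part in these values was not tested.

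CSR 22G-RNAs were spread over many genes, and the 10 leading ones all had mRNA. *cls-2*, a microtubule-binding protein of the spindle, led with 600, 635 and 620 RPM beside 3086, 3096 and 2971 normalized counts of mRNA. *snrp-200*, a helicase of the spliceosome, had 409, 413 and 431 RPM, and topoisomerase gene *top-2* 234, 243 and 239 RPM. *cls-2* and *snrp-200* were clear of the other loci in every library. The next loci overlapped one another, from *top-2* through the checkpoint kinase gene *atm-1* (231 ± 3.67 RPM), the chromodomain gene *cec-6*, the telomere-binding protein gene *tebp-2*, the formin gene *inft-2* and F13D12.5 to *znfx-1*, a helicase of germ granules (206 ± 2.79 RPM). *set-9* closed the first 10. The mRNA of these 10 loci ranged from 1281 normalized counts for *tebp-2* to 22738 for *top-2*.

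**Figure D3:**
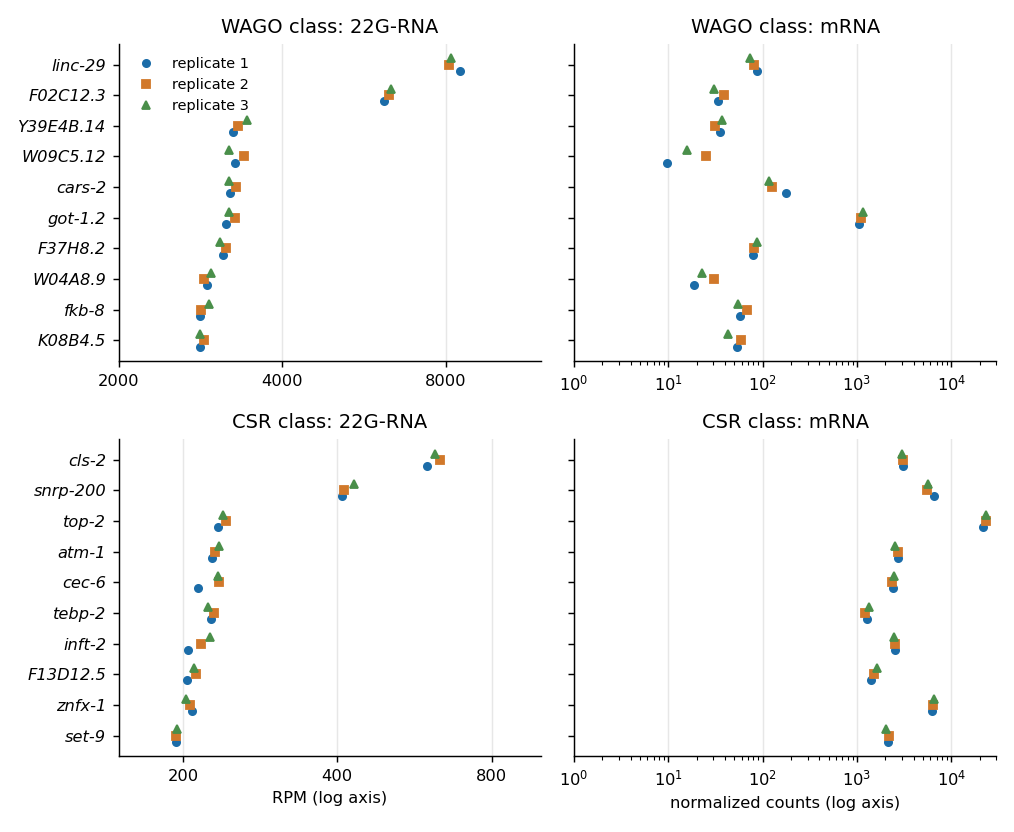
Level of 22G-RNAs (left, RPM) and of mRNA (right, normalized counts) at the 10 WAGO class loci (top) and the 10 CSR class loci (bottom) of highest 22G-RNA, on log axes. Points are the 3 wildtype libraries of each kind. The WAGO loci have more 22G-RNA and, except *got-1.2*, an mRNA mean of at most 140, whereas the CSR loci have 1281 or more.

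The loci of the classes differed in kind and in place. Protein-coding genes made up 99.3% of the CSR loci, 99.2% of the ALG target loci, 78.6% of the WAGO loci and 69.9% of the ERGO target loci. Pseudogenes were 11.2% of the WAGO and 23.6% of the ERGO target loci, against 0.582% of the CSR loci. Of the 2215 WAGO loci 212 are not in the annotation, and these count in the shares by kind but not in those by chromosome. On the X chromosome lay 15.6% of the WAGO, 12.6% of the ERGO target, 5.08% of the CSR and 0.0715% of the ALG target loci, beside 13.7% of all protein-coding genes. Chromosome V, with 24.99% of the protein-coding genes, held 13.9% of the CSR loci.

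Loci were joined to the mRNA table by gene, and those with at least 2 RPM and an mRNA row were compared. There were 1857 for WAGO, 3237 for CSR, 506 for ALG target and 93 for ERGO target genes. The median 22G-RNA level per kilobase of exon was 30.8 RPM for WAGO, 22.7 for ERGO target, 6.47 for CSR and 5.19 for ALG target loci. The median mRNA level per kilobase was 67.2 normalized counts for WAGO, 30.4 for ERGO target, 1225 for CSR and 1830 for ALG target loci. Over all 1399 ALG target genes, without the limit of 2 RPM, the medians per kilobase were 0.557 RPM and 11.2 normalized counts. All mRNA rows with a mean of at least 2 had a median of 110.8 per kilobase, and those in no 22G-RNA class 47.6. The WAGO median lies between them. These references leave out rows with a mean under 2. The class loci were not limited by mRNA, and 41 of the WAGO loci had an mRNA mean of 0.

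The differences between class medians were far larger than the spread between libraries. On the log2(value + 1) scale per kilobase the WAGO median was above the CSR median by 2.10 ± 0.01 for 22G-RNA and below it for mRNA, with a difference of -4.14 ± 0.02 (SD, n = 3 libraries). Per gene, without the length, these were 1.67 ± 0.02 and -4.60 ± 0.03. ERGO target loci were above CSR loci in 22G-RNA per kilobase (CSR minus ERGO target -1.65 ± 0.04) and below in mRNA (5.11 ± 0.03). CSR and ALG target loci differed by 0.26 ± 0.03 for 22G-RNA and -0.55 ± 0.03 for mRNA per kilobase. Without the limit of 2 RPM the per-gene difference of CSR minus ALG target was 2.90 for 22G-RNA and 7.27 for mRNA, the latter opposite in sign. All 12 differences, 6 pairs of classes for either kind of RNA, had the same sign in 3 of 3 libraries. The two-sided exact permutation test by sign flips gave p = 0.25 for each, also after Benjamini-Hochberg adjustment over the 6 pairs, and 0.25 is the smallest p that 3 libraries allow, so no difference could pass 0.05. The place of the ALG and ERGO target classes depended on which loci were taken. Among loci listed under 1 class only, the per-gene difference of CSR minus ALG target in mRNA was 0.94 and that of CSR minus ERGO target in 22G-RNA 1.14, both opposite in sign to the values over all loci (-0.35 and -0.56).

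WAGO 22G-RNA reads came largely from genes with little mRNA. Loci with 10 to under 100 normalized counts gave 48.3% ± 0.056 (SD, n = 3) of the WAGO level, loci under 10 gave 12.1% and loci with 1000 or more 7.68%. In the CSR class loci with 1000 or more normalized counts gave 90.1% ± 0.023. ERGO target 22G-RNAs came mostly from 24 genes with 100 to under 1000 normalized counts, at 54.5% of the level, and *eri-6* alone was 25.7%. Read from the side of the mRNA, 62.8% of the 4048 protein-coding genes with over 1000 and up to 10000 normalized counts were CSR loci and 6.05% WAGO loci. Of the 4170 with over 10 and up to 100, 13.2% were WAGO loci and 0.384% CSR loci.

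**Figure D4:**
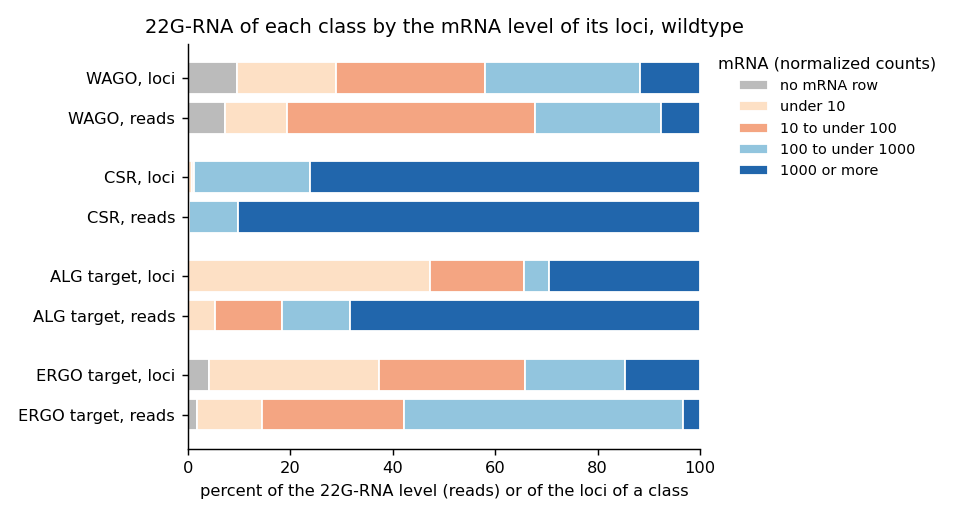
Share of the loci and of the summed 22G-RNA level (reads) of each class in percent, by the mean mRNA level of the locus in normalized counts. The band of 1000 or more holds 90.1% of the CSR level and 7.68% of the WAGO level.

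The ratio of 22G-RNA to mRNA spanned a wide range. It was taken over loci with an mRNA mean above 0, without 41 WAGO, 1 CSR, 2 ALG target and 4 ERGO target loci at 0. The median ratio was 498 RPM per 1000 normalized counts for WAGO loci, with quartiles of 63.2 and 3456, and 810 for ERGO target loci. It was 5.24 for CSR loci, with quartiles of 2.82 and 9.47, and 2.89 for ALG target loci. For a few loci the imbalance was extreme. *fbxb-14*, an F-box gene on chromosome II, had 1440, 1472 and 1478 RPM beside 6.14, 0 and 4.56 normalized counts, and the pseudogenes Y71G12B.28 and Y52B11A.18 had 1724 and 1595 RPM beside 8.96 and 4.55. In the mRNA libraries 3 reads are worth about 2.65 to 3.41 normalized counts, so these mRNA values rest on a few reads. *fbxb-14* overlaps W08F4.12 on its own strand.

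Some loci had both. Among the top 10% of WAGO loci the highest mRNA was that of *anc-1*, a giant protein that anchors nuclei, with 16383 normalized counts beside 435, 447 and 439 RPM. ZC247.1 (6784 normalized counts, 407 RPM) and the FERM domain gene *frm-1* (4465 normalized counts, 448 RPM), also listed as an ALG target, followed. These are long transcripts, with 13329 to 25894 exon bases, and their 22G-RNA per kilobase of 17.0 to 30.6 RPM was at or under the class median. In the CSR class the highest mRNAs among the top 10% were those of *cbd-1* (107478 normalized counts, 62.3 RPM), the yolk receptor gene *rme-2* (38318 and 59.9) and the non-muscle myosin gene *nmy-2* (36290 and 48.5). At the other end only 7 of the 3237 CSR loci had an mRNA mean under 10, and the highest 22G-RNA among them was 6.20 RPM at the pseudogene Y46H3C.4, whose mRNA is listed at 0 in all 3 libraries.

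Within a class the 22G-RNA level followed the mRNA level only in part. For CSR loci Spearman's rank correlation across genes was 0.415, and 0.409 to 0.419 over the 9 pairings of an sRNA-seq with an mRNA-seq library. It was 0.208 for ALG target, 0.188 for ERGO target and -0.038 for WAGO loci, and the sign of these 3 depended on the filter. It was 0.080 for WAGO with no filter, -0.018 for ALG target at 10 RPM or more and -0.081 for ERGO target at an mRNA mean of 10 or more. Genes are not independent replicates and all points share the same libraries, so the rank correlation is given as a description. Length is shared by both levels, and the rank correlation of 22G-RNA level and exon length was 0.514 for CSR loci and -0.035 for WAGO loci. With both levels per kilobase the rank correlation was 0.224 for CSR, 0.098 for ALG target, -0.008 for ERGO target and -0.108 for WAGO loci.

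CSR loci were next ordered by mRNA per kilobase and cut into 5 groups of 647 or 648. Their median 22G-RNA went from 4.56 RPM per kilobase in the group of lowest mRNA to 6.44, 6.81, 7.19 and 7.35 in the following ones, while the median mRNA went from 469 to 3632 normalized counts per kilobase. WAGO loci, in 5 groups of 371 or 372, had 27.6, 46.7, 42.4, 24.3 and 23.3 RPM per kilobase in the same order. They were highest in the groups with a median mRNA of 21.2 and 67.2 per kilobase. Ordered by 22G-RNA instead, the group of WAGO loci with the most 22G-RNA had a median mRNA of 38.5 per kilobase, against 73.6 to 104.5 in the other 4 groups. In the 3 mRNA-seq libraries taken singly it was 38.6, 36.1 and 36.6 per kilobase.

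**Figure D5:**
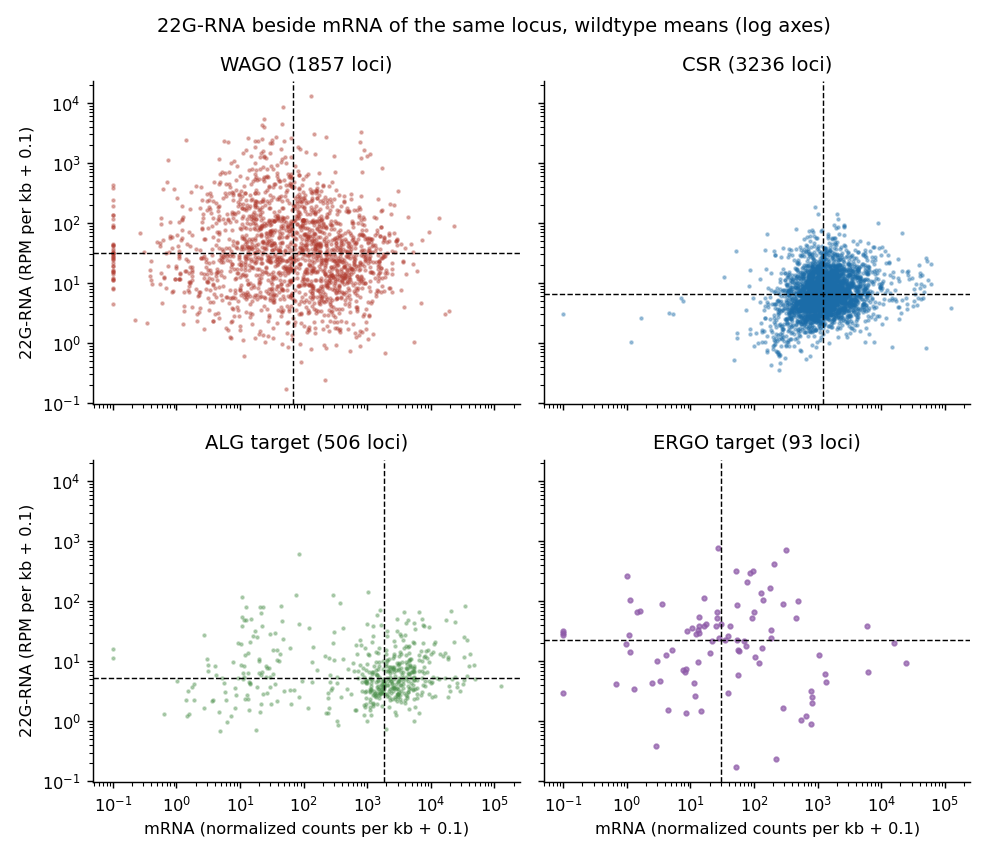
Mean 22G-RNA (RPM per kilobase of exon, plus 0.1) against mean mRNA (normalized counts per kilobase, plus 0.1) of the same locus in 4 classes, log axes, 1 point per locus with at least 2 RPM and a known exon length. Dashed lines are the medians. WAGO loci spread over the whole range of mRNA, CSR loci lie around 1225 normalized counts per kilobase, and ALG target loci have quartiles of 311 and 4126.

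The ALG target class was a mixture by the other lists its genes are on. Of its 1399 genes 292 were also CSR loci and 69 also WAGO loci, 1 of them both. The 291 shared with CSR alone had a median mRNA of 2804 normalized counts per kilobase and a median 22G-RNA of 3.97 RPM per kilobase. The 68 shared with WAGO alone had 25.4 and 12.9. The 1039 listed as ALG target only had 5.41 normalized counts and 0.224 RPM per kilobase. Only 188 of these 1039 reached 2 RPM, against 257 of these 291 and 60 of these 68, so that the 506 loci compared above hold most of the shared genes and few of the others. Without the filter on 22G-RNA, the rank correlation over all 1399 genes was 0.724 and the median mRNA was 11.2 per kilobase. Among the 506 that passed, C04G2.10 (737, 759 and 727 RPM, 101.1 normalized counts) and *zfp-1*, a chromatin protein gene (749, 732 and 731 RPM, 1700 normalized counts), led and overlapped. *zfp-1* overlaps *ztf-1*, F54F2.6 and F54F2.7 on the other strand. Among its top 10% the highest mRNA was that of *pab-1*, a poly(A)-binding protein (107, 114 and 116 RPM, 41234 normalized counts). W03C9.1 had 99.9 ± 1.84 RPM beside 8.93 normalized counts.

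Genes of sperm were on the ALG target list with little 22G-RNA. Of 35 *msp* genes, for major sperm proteins, 22 were ALG targets, none had 2 RPM of 22G-RNA and together they had 9.05 RPM. Of the whole class 63.8% (893 of 1399) lay under 2 RPM. Of 16 *ssp* and *ssq* genes 14 were ALG targets, with 2.87 RPM together. The Argonaute genes *alg-3* and *alg-4*, which are ALG targets themselves, had 20.2 ± 8.14 and 24.1 ± 5.26 normalized counts. The highest ALG class 26G-RNA was at *spch-1*, a sperm chromatin protein gene, with 1.77, 2.64 and 2.45 RPM, and *spch-3* and *spch-2* had 0.630 and 0.603 RPM. 26G-RNAs were above 0 at 799 of the 1399 genes, and across these the rank correlation of 26G-RNA and 22G-RNA was -0.028, and 0.019 without replicate 3. Genes with 26G-RNAs had a median mRNA of 7.35 normalized counts and 0.317 RPM of 22G-RNA, those without 131 and 1.65.

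ERGO target genes with 26G-RNAs had more 22G-RNA than those without. The rank correlation across the 77 genes with 26G-RNAs above 0 was 0.308, and 0.129 across the 21 with at least 2 RPM. The median 22G-RNA was 19.5 RPM at these 77 genes and 2.46 RPM at the other 46. The pseudogene Y17D7C.3 led the 26G-RNAs (33.7, 26.5 and 38.8 RPM), overlapped by the pseudogene F39E9.7 (26.4, 23.7 and 29.8 RPM), and was next to *eri-6* in 22G-RNA (611, 540 and 542 RPM). *eri-6*, a helicase of the ERGO-1 pathway, had the most 22G-RNA, at 1508, 1501 and 1535 RPM beside 429 ± 31.4 normalized counts of mRNA. *sosi-1* lies on the other strand of *eri-6*, and T01A4.9 overlaps *eri-6* on its own strand. ZK262.8 had 214, 218 and 216 RPM although its mRNA was listed at 0, 0 and 2.28. It overlaps ZK262.9 on its own strand, so that its mRNA value is uncertain. Of the 123 ERGO target genes 79 were listed as WAGO loci too. The 64 of them that are not 23H targets had a median of 25.2 RPM per kilobase, against 1.446 for the 38 listed as ERGO target only.

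23H-RNAs, each a sequence of its own in the table, came mostly from a few places. The plus-strand RNA of F43E2.6 had 71.6, 71.7 and 72.5 RPM, and its minus-strand partner 19.9, 17.3 and 19.5 RPM. The pair shown above matches over 21 bases and leaves 2 unpaired bases at either 3′ end. An RNA annotated to *mir-5592* on chromosome X had 51.8, 54.6 and 50.6 RPM, and its partner, with the same 21 paired bases and 2-base ends, 1.11 RPM. The 3 highest, these without that partner, did not overlap. In all 714 of 1194 23H-RNAs had a partner in the class with at least 18 complementary bases in a row, and these held 89.9% of the reads. Of the 1194 sequences 523 were 23 bases long, and 74 began with G. Among genes targeted by 23H-RNAs, *rrn-3.1*, a ribosomal RNA gene, led the 22G-RNAs with 798, 940 and 929 RPM, ahead of Y17D7C.3 and of *jmjc-1*, a JmjC domain gene (478, 485 and 486 RPM), which overlaps *cah-6* on the other strand.

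The genes that make and use these small RNAs were themselves mostly 22G-RNA loci. Of 63 such genes with an mRNA row 50 had 22G-RNA rows (79.4%), 39 in the CSR class (61.9%) and 9 in the WAGO class (14.3%). Over all mRNA rows with a mean of at least 2 these shares were 38.4, 22.2 and 11.2%. The 63 had a median of 1096 normalized counts per kilobase. Of all protein-coding genes with over 1000 and up to 10000 normalized counts per gene, not per kilobase, 62.8% were CSR loci and 6.05% WAGO loci. Some of the 63 lie outside this band, such as *wago-1* and *wago-10*. The CSR share of the 63 genes was near this. Among the WAGO Argonaute genes, *wago-1* had 28335 ± 1191 normalized counts and *hrde-1*, a nuclear Argonaute of the germline, 26523 ± 584, whereas *wago-10* had 3.54, 0 and 4.53. *hrde-1* carried 140, 146 and 138 RPM of 22G-RNA, *ppw-2* 125 RPM and *wago-4* 111 RPM, and *wago-1* 14.02 RPM. The mRNA of *ppw-1* was 6724, 7092 and 7455 normalized counts with 50.6 RPM of 22G-RNA, and that of *sago-2* 435 with 16.2 RPM.

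The RNA-dependent RNA polymerases differed. *ego-1*, of the germline, had 8414 ± 187 normalized counts and 76.8 ± 2.05 RPM as a CSR locus, *rrf-3*, of the 26G-RNA pathway, 4191 and 25.4 RPM, and *rrf-1* 5494 ± 127 normalized counts with no 22G-RNA row. *rrf-2* was a WAGO locus with 337 normalized counts and 109, 108 and 116 RPM. The RNAi factor *rde-11* was another, with 1026 normalized counts and 229, 234 and 234 RPM, and *parn-1*, which trims piRNAs, was listed under WAGO and ALG with 658 normalized counts and 164, 163 and 170 RPM. The piRNA Argonaute gene *prg-1* was an ALG target with 10076 ± 222 normalized counts and 176, 180 and 166 RPM. The miRNA Argonaute *alg-1*, a WAGO locus, had 580 normalized counts and 5.84 RPM, and *alg-2* and *alg-5*, CSR loci, 2975 and 5314 normalized counts. The 14 genes around the mutator foci, where WAGO 22G-RNAs are made, ranged from 595 to 1950 normalized counts per kilobase. Per gene they ranged from 970 to 6417. CSR loci were 8 of them (57.1%), beside 62.8% of protein-coding genes with over 1000 and up to 10000 normalized counts per gene.

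All 12 oocyte and embryo markers were CSR loci, at 2.35 to 135 RPM of 22G-RNA, the highest at *glh-1*, a germ granule helicase, and the lowest at *oma-1*. All 12 have high mRNA, and of protein-coding genes with over 1000 and up to 10000 normalized counts 62.8% were CSR loci, of those above 10000 56.4%. None of the 10 sperm markers was a CSR or WAGO locus and 8 were ALG targets, beside 6.95% of all protein-coding genes. Their mRNA means were 9.08 to 46.7 normalized counts. Of protein-coding genes with over 0 and up to 10, 0.288% were CSR loci, 5.20% WAGO loci and 12.5% ALG targets. From over 10 up to 100 the shares were 0.384, 13.2 and 6.12%. Few CSR loci thus occur at these mRNA levels. The WAGO share of 13.2% in the upper band is above the 8.71% of all protein-coding genes. Of 391 F-box genes (*fbx*) 96 were WAGO loci, with 9913 RPM together, and 32 of 92 *math* and *bath* genes, with MATH domains, gave 7842 RPM. Of all 19985 protein-coding genes 1740 were WAGO loci (8.71%) and 3582 CSR loci (17.9%). Of 595 chemoreceptor genes with *srh*, *str* or *sri* symbols 6 were WAGO loci (1.008%), and of 159 *col* collagen genes 10 (6.29%). Only 41 of these 595 had an mRNA mean of at least 2, and of protein-coding genes with an mRNA of 0, 2.02% were WAGO loci. Of 72 *his* histone genes 11 were WAGO loci with 1781.9 RPM, and of 78 ribosomal protein genes 16 were CSR loci (20.5%) with 112 RPM together. The median mRNA of all 78 was 35710 normalized counts per kilobase. Their CSR share was below the 62.8 and 56.4% of protein-coding genes in the 2 highest mRNA bands above, which are per gene. Vitellogenin genes, with a median of 44962 per kilobase, included 2 CSR loci with 7.41 RPM together.

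Genes that the study names from its sequencing were also read in the wildtype. *scrm-4*, of the scramblase family, was a WAGO locus with 81.7, 82.8 and 81.7 RPM of 22G-RNA and 45.8, 46.0 and 48.9 normalized counts of mRNA. Its 22G-RNA per kilobase, 82.6 RPM, was above the class median of 30.8, and its mRNA of 47.2 per kilobase below the class median of 67.2. F15D4.5 had 1968, 1949 and 1775 RPM beside 77.1 ± 4.65 normalized counts, and Y102A5C.36 289, 289 and 265 RPM beside 49.8 ± 9.64. *tcer-1* itself was a CSR locus, with 5877, 6034 and 6346 normalized counts and 19.42, 19.63 and 19.45 RPM. Of the 25 genes listed under WAGO and CSR only, *imb-2*, a nuclear import receptor (178 ± 1.72 RPM, 5851 normalized counts), *zim-1*, of meiotic chromosome pairing (82.2 RPM, 2403), and *dnbp-1* (38.2 RPM, 2666) had the most 22G-RNA.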

How the data were processed

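The authors made the sRNA-seq table with the tinyRNA pipeline on WormBase WS279, with 22G-RNAs as antisense reads of 21 to 23 bases that start with G, and with class lists from an earlier annotation. The spacing of its values showed that the deposited values are RPM, not counts divided by size factors as the plan had assumed. The deposited mRNA values are a signal without a physical unit, normalized by the authors from RSEM counts on STAR alignments. Whether 1 size factor per library was used was not settled. Only 53.6 to 80.4% of low mRNA values were whole multiples of 1 step, so the value of 1 read is approximate. RSEM shares out reads that map to several genes, so copies and overlapping genes are uncertain, and its strand setting is not given in the sources used here. The mRNA-seq was rRNA-depleted, and its RNA was size-selected above 200 bases. Columns of the mutant libraries were not used.

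Means and SD are over the 3 biological replicates. Levels per kilobase use merged exons of WBcel235, the assembly of WS279. Class comparisons were limited to loci whose mean reached 2 RPM, with log2 after adding 1 and exact sign-flip tests, with Benjamini-Hochberg adjustment; rank correlation was given with no test. Reads per library were estimated from the value of 1 read. In sRNA-seq 93.5 to 93.8% of low values were whole multiples of it, and in mRNA-seq 53.6 to 80.4%. Named loci were the 10 highest of WAGO, CSR and miRNA, the 5 highest of the others, in each class up to 3 of highest mRNA among the top 10% by 22G-RNA and up to 3 of highest 22G-RNA with an mRNA mean under 10, and genes of fixed lists. The symbols *tofu-3* and *cde-1* of these lists matched no mRNA row. Members and lists were chosen with earlier results of these data known. Figures were drawn with matplotlib 3.10.9, tables were handled with pandas 2.3.3 and numpy 2.4.6 and correlations came from scipy 1.17.1, all under Python 3.11.15, and the statistics were tested on simulated data. Alternatives were another filter, pseudocount, length, class overlap and library set.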

Additional observations from a re-analysis of the deposited data

How the results depend on the processing

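The rank correlation of 22G-RNA and mRNA level across the genes of a class moved under most alternatives. Without a filter it was 0.080 for WAGO, against -0.038, and 0.502 for CSR, 0.724 for ALG target and 0.110 for ERGO target loci. With at least 10 RPM it was -0.088, 0.247 and -0.018 for WAGO, CSR and ALG target, and with an mRNA mean of at least 10 it was -0.151, 0.412, 0.182 and -0.081 for WAGO, CSR, ALG and ERGO target. Per kilobase it was -0.108, 0.224, 0.098 and -0.0083, and over loci of 1 class only -0.055, 0.469, 0.381 and 0.377. Pearson's r was 0.380 for CSR, 0.102 for ALG target and 0.113 for ERGO target. Over the 9 pairings of 1 library of each kind it ran from -0.048 to -0.034 for WAGO and from 0.409 to 0.419 for CSR, and its lowest was 0.202 for ALG and 0.159 for ERGO target. Leaving out a replicate gave -0.0384 to -0.0365, 0.412 to 0.416, 0.205 to 0.230 and 0.162 to 0.197. For 26G-RNA and 22G-RNA, leaving out a replicate gave -0.0236 to 0.0187 (ALG) and 0.287 to 0.385 (ERGO), and at 26G-RNA of at least 2 RPM the ERGO value was 0.129. With 1 ALG gene at that level the ALG value could not be had.

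Of the differences between class medians, 3 in 22G-RNA and 4 in mRNA turned sign under an alternative and 33 and 32 kept theirs, and leaving out a replicate turned none of 18 and 18. Without a filter on 22G-RNA, mRNA of WAGO minus ALG target was 2.60, CSR minus ALG target 7.27 and ALG minus ERGO target -1.22. With at least 10 RPM, 22G-RNA of CSR minus ALG target was -0.045. Over loci of 1 class, mRNA of CSR minus ALG target was 0.94, and 22G-RNA of CSR minus ERGO target 1.14 and of ALG minus ERGO target 0.39. The filters and lists here choose other loci; no further cause was tested.

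Shares of the classes moved with the total used. As a share of all reads they were 30.0 (WAGO), 23.2 (miRNA), 6.02 (CSR), 3.61 (piRNA), 1.007 (ALG target), 0.589 (ERGO target), 0.475 (23H target), 0.0277 (23H-RNA), 0.0214 (ERGO 26G) and 0.00561% (ALG 26G). Without the 10 highest features they were 57.5, 19.3, 11.9, 7.12, 1.99, 1.16, 0.937, 0.0546, 0.0422 and 0.0111%. With each gene counted once in the total, WAGO was 47.2, miRNA 36.5, CSR 9.48, ALG target 1.59, ERGO target 0.927 and 23H target 0.749%. No paired analysis was possible because no 2 groups were compared. Loci listed at 0 lie under 3 reads, 0.208 to 0.233 RPM, and ALG class 26G-RNAs are near that level.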
